A study of Homo sapiens with 12 samples.

Results

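The laminin subunit genes LAMA1, LAMA2, LAMA3, LAMA4, LAMA5, LAMB1, LAMB2, LAMB3 and LAMC1 were chosen by gene symbol, and each of these 9 genes was found at 1 of the 31585 loci in the deposited expression table of A375 cells. Of the 9 genes, 7 passed a filter that asks for 3 or more libraries at 1 FPKM or higher (FPKM, fragments scaled to transcript length and to the mapped fragments of the library) and were tested, and LAMA2 and LAMA3 did not pass it. LAMA1 reached this level only in libraries with YAP-S127A or YAP-2SA, so it entered the test through the groups in which it was high.

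Laminins are large secreted glycoproteins that form the polymeric sheet of basement membranes. Each is a heterotrimer of an alpha, a beta and a gamma chain joined through a coiled coil, and the alpha chain carries the globular domains bound by integrins, dystroglycan and BCAM. The identity of the alpha chain therefore sets much of the receptor specificity of a laminin, and the LAMA4 and LAMA5 chains are best known from vascular and epithelial basement membranes.

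A375 is a human melanoma cell line. The cells were stably transduced with the retroviral vector MSCV-IRES-Hygro, either empty (Control) or encoding a mutant of human YAP, and hygromycin-selected populations of transduced cells, not single clones, were sequenced with 3 separately plated cultures per group, 12 libraries in all. YAP is a transcriptional co-activator that binds DNA through TEAD factors. YAP-S127A lacks a serine whose phosphorylation holds YAP in the cytoplasm, YAP-S127A,S94A additionally carries a change that blocks TEAD binding, and YAP-2SA combines S127A with S381A, a change at a site linked to YAP degradation. One sample label field of the YAP-2SA libraries also lists S94A, whereas their titles do not. RNA was collected 24 h after plating by the series record and 48 h by the study's methods.

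The FPKM values of a library summed to between 790865 and 901558, and 20161 to 20656 loci were above 0. The sequencing depth behind the values is unknown, which limits the precision of low values. YAP1 stood at 34.1 and 33.0 FPKM in Control replicates 1 and 2, at 172 FPKM in Control replicate 3, and between 130 and 187 FPKM in the 9 libraries with a YAP vector. In Control replicate 3, YAP1 was thus as high as with a YAP vector, which went against its label, and the laminin differences called against Control are given with and without it. Of the melanocyte lineage markers, SOX10 was at 263 ± 25.6 FPKM and S100B at 46.9 ± 5.22 FPKM (mean ± SD, n = 3) in Control cells, whereas PMEL, MLANA, TYR and TYRP1 were below 0.5 FPKM and DCT was listed at 0.

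LAMA5 was upregulated in both TEAD-binding YAP mutants, in a graded order. LAMA5 encodes the alpha-5 chain, the alpha chain of most mature epithelial basement membranes. It was measured at 4.85, 5.08 and 6.45 FPKM in the Control libraries, 5.89, 5.24 and 6.32 FPKM with YAP-S127A,S94A, 10.9, 11.6 and 13.9 FPKM with YAP-S127A, and 43.7, 46.0 and 41.4 FPKM with YAP-2SA. Control and YAP-S127A,S94A libraries overlapped, and the other groups each lay fully above them and apart from each other. On the deposited log2(FPKM + 1) scale, YAP-2SA exceeded Control by 2.80 (SE 0.11, limma, Benjamini-Hochberg adjusted p = 1.27e-08), an 8.002-fold ratio of mean FPKM. YAP-S127A exceeded Control by 1.03 on that scale (adjusted p = 0.00031, 2.22-fold), and YAP-2SA exceeded YAP-S127A by 1.77 (adjusted p = 8.29e-07, 3.60-fold). Without Control replicate 3, the LAMA5 differences from Control were 2.90 for YAP-2SA and 1.13 for YAP-S127A on the log2 scale.

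LAMA4 was downregulated in YAP-2SA cells. LAMA4 encodes the alpha-4 chain, which lacks the amino-terminal arm needed for laminin polymerisation. Its FPKM was 27.2, 32.8 and 41.1 in the Control libraries, 38.5, 40.7 and 51.7 with YAP-S127A,S94A, 19.1, 28.3 and 30.4 with YAP-S127A, and 4.04, 6.59 and 3.81 with YAP-2SA. All 3 YAP-2SA libraries lay below every other library, whereas Control overlapped with both other groups. The overlap with YAP-S127A,S94A came only from Control replicate 3. YAP-2SA fell by 2.59 compared to Control on the log2(FPKM + 1) scale (SE 0.23, limma adjusted p = 5.27e-06), and mean FPKM was 6.996-fold higher in Control. The difference between YAP-2SA and YAP-S127A was -2.22 (adjusted p = 2.95e-05). YAP-S127A did not pass the test against Control, with a difference of -0.37 and a 95% confidence interval from -0.88 to 0.13 (adjusted p = 0.412). Against YAP-S127A,S94A, the LAMA4 difference of YAP-S127A was -0.74 with adjusted p = 0.0637, although the libraries did not overlap, and this p was 0.0333 with the replicate number as a block. Without Control replicate 3, the YAP-2SA difference from Control was -2.44 (adjusted p = 3.79e-05).

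LAMA1 was at the edge of detection in Control cells and measurable in both TEAD-binding YAP mutants. LAMA1 encodes the alpha-1 chain, a laminin chain of the early embryo and of few adult tissues. The Control libraries held 0.0374, 0.0303 and 0.0548 FPKM, and the YAP-S127A,S94A libraries 0.0253, 0.0425 and 0.026 FPKM. The YAP-S127A libraries held 3.69, 2.79 and 1.58 FPKM, and the YAP-2SA libraries 4.99, 3.57 and 2.26 FPKM. The low and the high pair of groups did not overlap, and within each pair the libraries overlapped. LAMA1 exceeded Control by 2.10 with YAP-2SA (SE 0.23) and by 1.78 with YAP-S127A on the log2(FPKM + 1) scale, which understates changes of low genes. Because the filter admitted LAMA1 only through its high groups, its p against the low groups is given from limma fitted with no filter on low values, where the adjusted p was 7.15e-05 for YAP-2SA and 0.00204 for YAP-S127A. The ratios of mean FPKM were 88.3 and 65.9, and both rest on Control levels below 0.06 FPKM. YAP-2SA and YAP-S127A were not called different for LAMA1, with a difference of 0.32 and a 95% confidence interval from -0.20 to 0.84 (limma adjusted p = 0.338). With the replicate number as a block, the limma adjusted p was 0.241. LAMA1 fell from replicate 1 to 3 in both groups, and each YAP-2SA library was above the YAP-S127A library of the same number. The spread thus partly followed the replicate number, and a smaller difference between these groups is not excluded. Without Control replicate 3, the differences from Control were 2.11 and 1.79.

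LAMA2 and LAMA3, which encode the alpha-2 chain of muscle and nerve and the alpha-3 chain of the epidermal laminin, remained low in every group. LAMA2 ranged from 0.0785 to 0.149 FPKM over the 12 libraries and LAMA3 from 0.208 to 0.557 FPKM, with overlap between the groups in each comparison.

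**Figure D1:**
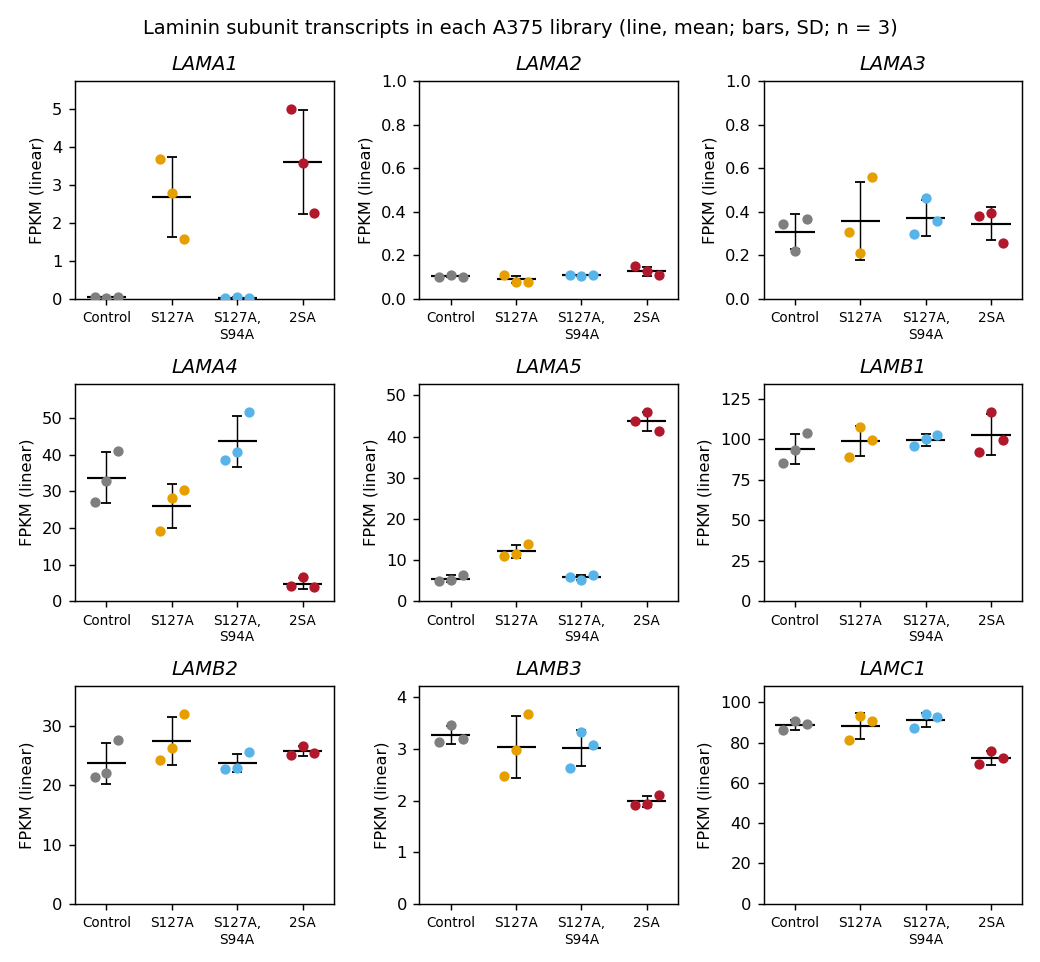
FPKM on a linear axis for each of the 9 laminin genes in each library, by group (points, libraries; line, mean; bars, SD, n = 3). LAMA5 rises to 41.4 to 46.0 FPKM and LAMA4 lies at 3.81 to 6.59 FPKM with YAP-2SA, LAMA1 is above 1.5 FPKM only with YAP-S127A and YAP-2SA, and LAMB1 and LAMB2 overlap across all groups.

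The tested beta and gamma chains, which join the alpha chain in the trimer, differed by less than 2-fold in mean FPKM between groups. LAMB1, the beta-1 chain of the most widespread laminins, averaged 94.1 ± 9.23 FPKM in Control, 99.0 ± 9.28 with YAP-S127A, 99.6 ± 3.46 with YAP-S127A,S94A and 103 ± 12.7 with YAP-2SA. Its difference between YAP-2SA and Control was 0.13 with a 95% confidence interval from -0.10 to 0.35 on the log2(FPKM + 1) scale (limma adjusted p = 0.353). LAMB2, the beta-2 chain known from the neuromuscular junction and the glomerulus, was measured at 23.7 ± 3.48, 27.5 ± 4.03, 23.8 ± 1.59 and 25.8 ± 0.811 FPKM in the same order, and its interval for YAP-2SA against Control ran from -0.13 to 0.37. Neither gene therefore differed beyond the spread between libraries, and differences within these intervals were not detectable here.

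LAMB3 and LAMC1 were lower in YAP-2SA cells by less than the 2-fold threshold. LAMB3, the beta-3 chain of the laminin that anchors the epidermis, was at 3.13, 3.47 and 3.20 FPKM in Control libraries and at 1.92, 1.93 and 2.10 FPKM with YAP-2SA. It fell by 0.52 compared to Control (limma adjusted p = 0.00331), or 1.65-fold in mean FPKM. Compared to YAP-S127A it fell by 0.43 (limma adjusted p = 0.0128), and this adjusted p was 0.0517 when limma was fitted on these 6 libraries alone. LAMC1, the gamma-1 chain shared by most laminins, was at 86.0, 90.6 and 89.2 FPKM in Control libraries, 81.1, 93.3 and 90.96 FPKM with YAP-S127A, 87.0, 94.01 and 92.6 FPKM with YAP-S127A,S94A, and 69.1, 75.7 and 72.1 FPKM with YAP-2SA. The YAP-2SA libraries lay below all others, and the LAMC1 difference from Control was -0.29 (SE 0.06, limma adjusted p = 0.00312), or 1.23-fold in mean FPKM. Without Control replicate 3, the YAP-2SA differences from Control were -0.53 for LAMB3 and -0.29 for LAMC1.

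Of the 7 tested laminin genes, 2 were higher and 3 lower in YAP-2SA than in Control cells at an adjusted p under 0.05, where 22.9% and 19.5% of the 15055 tested loci were called higher and lower. LAMA1 is 1 of the 2 wherever 2 laminin genes are counted as higher, and having entered the test through its high groups it had to differ, so these counts are a description. With a fold of mean FPKM over 2 required as well, 2 were higher and 1 lower, against 7.59% and 7.86% of loci. In YAP-S127A cells 2 were higher, beside 4.56% of loci, and 0 were lower by limma, beside 1.75% of loci, and by unadjusted p under 0.05 the count was also 2. The same counts held with the fold required, beside 2.07% and 0.405% of loci. Between YAP-2SA and YAP-S127A, 1 was higher and 3 were lower, beside 18.3% and 14.5% of loci, and with the fold required 1 was higher and 1 lower, beside 5.17% and 5.94% of loci. The counts against Control were the same with Control replicate 3 left out, where the differences that were not called included 0.20 for LAMB1 and 0.24 for LAMB2 in YAP-2SA and -0.22 for LAMA4 in YAP-S127A.

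In cells with YAP-S127A,S94A, the mutant that does not bind TEAD, no laminin gene passed the test against Control. By limma, 0 of the 7 genes were called in either direction, beside 0.0864% of loci called higher and 0.0930% called lower, and 0 of the 7 had an unadjusted p under 0.05. With the fold required as well, 0.0797% and 0.0930% of loci were called. The differences of LAMA1 and LAMA5 from Control were -0.01 (95% confidence interval -0.53 to 0.51) and 0.08 (-0.17 to 0.33). That of LAMA4 was 0.37 (-0.13 to 0.87), and it was 0.52 without Control replicate 3. When YAP-S127A was compared directly with YAP-S127A,S94A, LAMA1 differed by 1.80 (limma adjusted p = 0.00153 with no filter on low values) and LAMA5 by 0.94 (adjusted p = 0.000416, 2.09-fold). These 2 genes were the ones called higher, beside 6.36% of loci, and 0 were called lower, beside 4.31% of loci, while 3 of the 7 had an unadjusted p under 0.05. Both also passed the fold, beside 2.54% of loci higher and 0.950% lower. The LAMA5 fold fell under 2 without YAP-S127A replicate 3 and without YAP-S127A,S94A replicate 2. YAP-2SA exceeded YAP-S127A,S94A by 2.12 for LAMA1 and 2.72 for LAMA5, and fell by 2.96 for LAMA4, by 0.43 for LAMB3 and by 0.33 for LAMC1. In this comparison 2 were higher and 3 lower, beside 23.2% and 20.3% of loci, and with the fold required 2 were higher and 1 lower, beside 7.81% and 8.10% of loci. The comparisons share libraries, so their values are not independent of each other.

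**Figure D2:**
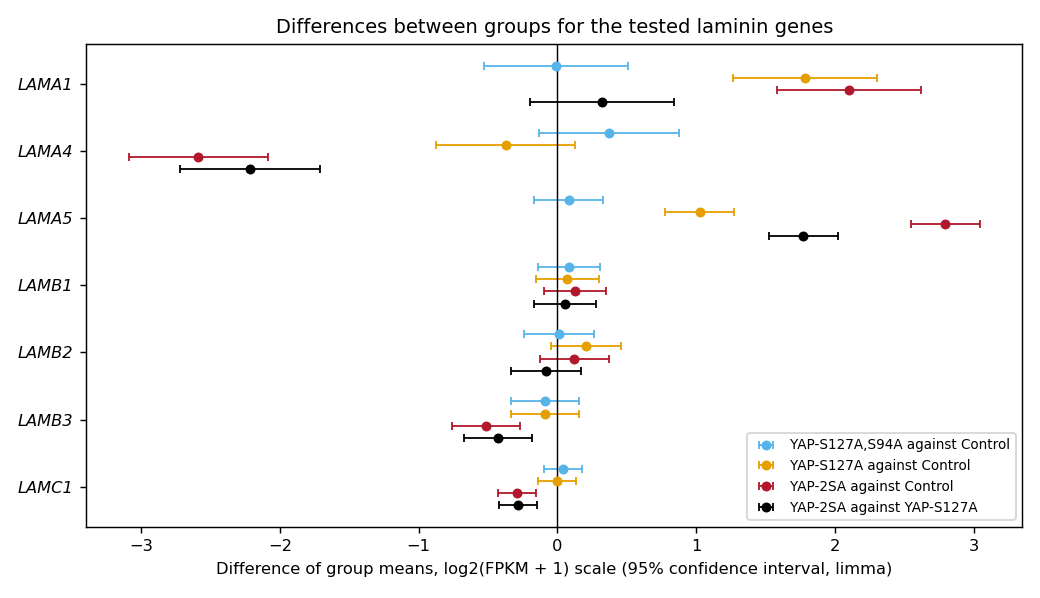
Difference of group means on the log2(FPKM + 1) scale for the 7 tested laminin genes (points) with 95% confidence intervals from limma (bars), in 4 comparisons. The intervals of LAMA5 lie above 0 for YAP-S127A and YAP-2SA and that of LAMA4 lies below 0 for YAP-2SA, while all YAP-S127A,S94A intervals span 0.

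Since FPKM is a value per transcript length, the alpha chains were compared as shares of their summed FPKM. LAMA4 made up 84.96 ± 1.18% of alpha-chain FPKM in Control cells, 87.2 ± 1.24% with YAP-S127A,S94A, 62.4 ± 5.53% with YAP-S127A and 9.06 ± 2.23% with YAP-2SA (mean ± SD, n = 3). LAMA5 made up 13.9 ± 0.907%, 11.7 ± 1.24%, 29.6 ± 2.52% and 83.2 ± 2.89% in the same order. LAMA1 accounted for 6.91 ± 3.72% with YAP-S127A and 6.80 ± 2.36% with YAP-2SA, and for 0.103 ± 0.0205% in Control. The leading alpha chain was thus LAMA4 in Control, YAP-S127A and YAP-S127A,S94A libraries and LAMA5 in YAP-2SA libraries, where the levels of LAMA4 and LAMA1 overlapped. For each of these 3 shares the YAP-2SA and Control libraries did not overlap. Each p was 0.1, the smallest that a two-sided exact permutation test of 3 against 3 libraries can give. Over the 72 tests of shares and sums, 27 reached this p, and no Benjamini-Hochberg adjusted p was below 0.267. The 27 include the LAMA4 and LAMA5 shares of YAP-S127A,S94A against Control, which differed by 2.28 and -2.15 percentage points without overlap. With Control replicate 3 left out, the YAP-2SA shares exceeded Control by 6.70 percentage points for LAMA1 and 69.1 for LAMA5, and the difference for LAMA4 was -75.6.

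The summed alpha-chain FPKM was 39.6 ± 7.87 in Control and 52.6 ± 4.47 with YAP-2SA, and the Control libraries reached 48.1 where the YAP-2SA libraries began at 47.8. Among the beta chains, LAMB1 held 77.7 ± 0.754% in Control and 78.7 ± 1.55% with YAP-2SA, and these libraries overlapped. LAMB3 held 2.71 ± 0.293% in Control and 1.53 ± 0.177% with YAP-2SA, without overlap (exact permutation p = 0.1, Benjamini-Hochberg adjusted p = 0.267). The ratio of summed alpha-chain FPKM to LAMC1 FPKM was 0.446 ± 0.0832 in Control and 0.727 ± 0.0565 with YAP-2SA (exact permutation p = 0.1, Benjamini-Hochberg adjusted p = 0.267). The ratio of summed beta-chain FPKM to LAMC1 FPKM was 1.37 ± 0.125 in Control and 1.80 ± 0.104 with YAP-2SA, again without overlap and with the same exact permutation p. FPKM measures transcripts, and no laminin protein was measured. In these bulk libraries fewer cells that express a gene and less RNA per cell cannot be told apart.

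**Figure D3:**
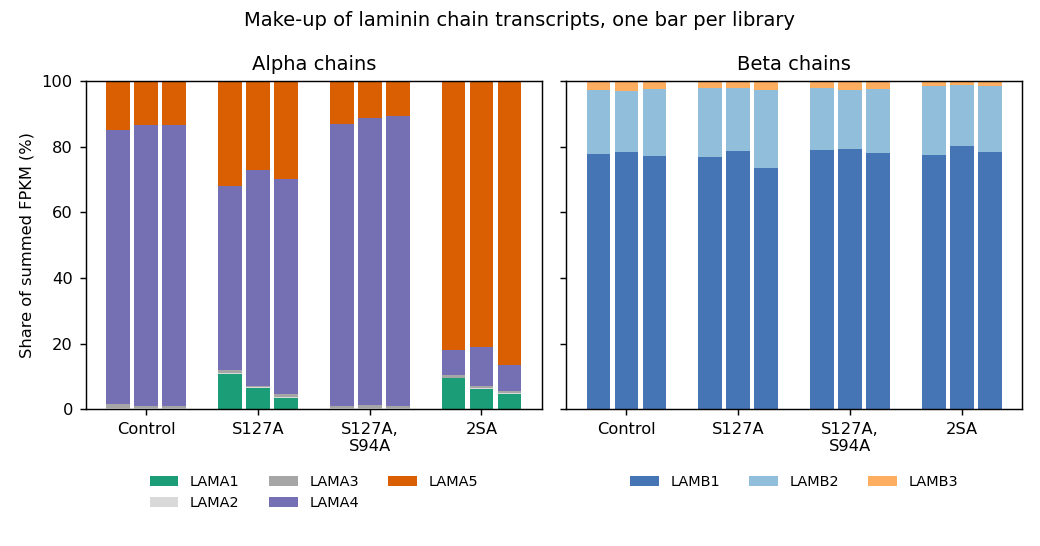
Share of summed FPKM (%) held by each alpha chain (left) and each beta chain (right), with one stacked bar per library in 4 groups. LAMA4 fills 83.6 to 85.8% of the alpha bars in Control and 7.59 to 11.6% in YAP-2SA, where LAMA5 fills 81.2 to 86.5%, and LAMB1 fills the largest part of every beta bar.

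LAMA5 lies at chr20:60883011-60942368 and LAMA4 at chr6:112429134-112576141 of GRCh37, both on the minus strand, and LAMA1 lies at chr18:6941741-7117796, also on the minus strand. LAMB1 (chr7:107564244-107643658), LAMB2 (chr3:49158547-49170551) and LAMB3 (chr1:209788215-209825770) are on the minus strand, and LAMC1 (chr1:182992555-183114727), LAMA2 (chr6:129204283-129837711) and LAMA3 (chr18:21269417-21536186) on the plus strand. Reads of overlapping or antisense genes cannot be separated here because the strand setting of the counting is not given in the sources used here. LAMA5 overlaps ADRM1 by 908 bases and LAMA5-AS1 by 3511 bases on the opposite strand and its locus also lists MIR4758, LAMA4 overlaps LAMA4-AS1 by 18848 bases, LAMB1 overlaps DLD by 7932 bases, and LAMC1 overlaps LAMC1-AS1 by 2881 bases.

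Since LAMA4 and LAMA5 changed in opposite directions, the 250 bases before their RefSeq starts (GRCh38.p14, minus strand, written 5′ to 3′ along the gene) are shown, with CG dinucleotides in capitals. They span chr6:112254568-112254817 for LAMA4 and chr20:62367313-62367562 for LAMA5.
LAMA4: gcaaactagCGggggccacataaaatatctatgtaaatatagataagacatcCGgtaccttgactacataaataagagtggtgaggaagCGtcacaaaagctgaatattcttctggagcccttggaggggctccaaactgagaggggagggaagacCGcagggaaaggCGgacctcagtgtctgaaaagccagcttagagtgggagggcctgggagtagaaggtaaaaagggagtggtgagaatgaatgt
LAMA5: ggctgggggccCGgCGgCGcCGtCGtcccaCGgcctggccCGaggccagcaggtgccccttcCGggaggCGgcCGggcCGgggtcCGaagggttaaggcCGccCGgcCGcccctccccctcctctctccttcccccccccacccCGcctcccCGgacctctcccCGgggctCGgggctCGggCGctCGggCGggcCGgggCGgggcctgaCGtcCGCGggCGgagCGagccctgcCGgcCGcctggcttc

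Windows from 250 bases before to 50 bases after the start were available for 8 of the 9 genes, with LAMA1 the one missing. The LAMA5 window was 82.7% G or C with 41 CG dinucleotides, and the LAMA4 window 51.3% with 8, where the median of 34943 such windows was 58.7% with 14. The LAMB1 and LAMC1 windows were 71.0% and 79.0% G or C. The TEAD core motif CATTCC, searched on both strands, was found in neither the LAMA4 nor the LAMA5 window, and 14.0% of all windows hold it. Among the windows of the other laminin genes it was found for LAMA2. The AP-1 motif TGANTCA was found for LAMA3 and for 1 of the LAMB3 windows, and 7.72% of all windows hold it. These matches describe letters in short windows and say nothing of distant sites.

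The loci most like each changed alpha chain over the 12 libraries were ranked by the root mean square difference of log2(FPKM + 1) profiles, each centred on its own mean, among 13500 named loci. For LAMA5 these were C20orf197, TNFAIP3 and AOX1, with differences of 0.14, 0.14 and 0.15. TNFAIP3, for example, averaged 1.26 FPKM in Control, 4.26 with YAP-S127A, 1.41 with YAP-S127A,S94A and 14.1 with YAP-2SA. For LAMA4 they were ANKH, the locus of AX747179 and FAM108C1, and FLJ46906, with differences of 0.20, 0.21 and 0.22. For LAMA1 they were KRT81, C16orf74 and TRPC4, with larger differences of 0.30, 0.32 and 0.33, and TRPC4 was at 0.0502 FPKM in Control and 5.62 with YAP-2SA. The log2(FPKM + 1) scale understates changes of low genes, so loci alike on it can differ in fold. For example, KRT81 was at 5.64 FPKM in Control and 22.7 with YAP-2SA, and C20orf197 at 0.00913 and 6.70 FPKM.

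Laminin receptors changed in both directions in YAP-2SA cells. Of 14 listed receptor genes 12 were tested, of which 5 were higher and 3 lower compared to Control, beside 22.9% and 19.5% of all tested loci. ITGB4, the integrin beta-4 subunit that binds laminin in hemidesmosomes, was at 3.91, 2.59 and 3.84 FPKM in Control libraries, 12.2, 12.3 and 13.8 with YAP-S127A, and 59.6, 72.9 and 57.3 with YAP-2SA. BCAM, an immunoglobulin-family receptor of the LAMA5 chain, was at 5.02, 4.33 and 7.33 FPKM, 19.4, 18.3 and 19.2 FPKM, and 69.7, 81.5 and 70.5 FPKM in the same order. For both genes these 3 groups were fully separated and ordered as for LAMA5. With YAP-S127A,S94A, ITGB4 was at 2.29, 2.61 and 2.31 FPKM and BCAM at 5.64, 4.87 and 4.80 FPKM, and both overlapped with Control. Compared to Control, ITGB4 differed by 3.86 and BCAM by 3.54 with YAP-2SA, and by 1.64 and 1.63 with YAP-S127A, on the log2(FPKM + 1) scale (limma adjusted p = 3.30e-09, 1.22e-08, 3.00e-05 and 5.72e-05).

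Of the integrin alpha subunits that bind laminin, ITGA3 and ITGA6 moved apart. ITGA3 rose from 79.8 FPKM in Control to 189 FPKM with YAP-2SA (difference 1.23, limma adjusted p = 4.66e-06), whereas ITGA6, a partner of ITGB4, was 98.9 and 38.5 FPKM (difference -1.34, adjusted p = 1.11e-07). The other 4 receptors called in YAP-2SA are named here after their values were seen. SGCA, a sarcoglycan, and DAG1, which encodes dystroglycan, differed by -1.16 and -0.30 on the log2 scale, and ITGB1 and the tetraspanin CD151 by 0.39 and 0.41. All 4 were still called with Control replicate 3 left out. SGCA was below 1 FPKM in every YAP-2SA library, so it entered the test through the groups in which it was high. With YAP-S127A, ITGB4 and BCAM were the 2 receptors called higher by limma and 0 were lower, beside 4.56% and 1.75% of loci, and by unadjusted p under 0.05 the counts were 4 and 0. With YAP-S127A,S94A, 0 receptors were called by limma in either direction, beside 0.0864% of loci higher and 0.0930% lower. By unadjusted p, 1 receptor was higher and 1 lower. Without Control replicate 3, the YAP-2SA differences were 3.93 for ITGB4, 3.72 for BCAM, 1.30 for ITGA3 and -1.35 for ITGA6.

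Partners of laminin in the basement membrane also moved in both directions. Of 24 listed genes 16 were tested, of which 7 were higher and 8 lower in YAP-2SA than in Control cells by limma, beside 22.9% and 19.5% of loci. FBLN1, a fibulin that binds basement membrane proteins, rose from 1.07 to 12.6 FPKM (difference 2.71). NID2, which encodes nidogen-2, a linker of laminin and collagen IV, rose from 0.349 to 2.95 FPKM (1.55), and AGRN, which encodes the laminin-binding proteoglycan agrin, rose from 33.7 to 86.8 FPKM (1.34). FREM1, which encodes a protein of embryonic basement membranes, was at 2.72 FPKM in Control and 0.0326 FPKM with YAP-2SA (-1.84). With the fold required as well, 4 genes of this list were higher and 6 lower, beside 7.59% and 7.86% of loci. More abundant genes that fell are named after their values were seen. SPARC was at 586 FPKM in Control and 279 FPKM with YAP-2SA. In the same order COL4A1 was at 74.2 and 32.3 FPKM, COL4A2 at 149 and 79.0 FPKM, and COL18A1 at 9.92 and 4.35 FPKM. NID2 was below 1 FPKM in every Control library and FREM1 in every YAP-2SA library. Both therefore entered the test through the groups in which they were high, and the counts of this list are a description. With YAP-S127A, 3 were higher and 1 lower, beside 4.56% and 1.75% of loci, and FBLN1 and NID2 were those past the 2-fold threshold. With Control replicate 3 left out, the YAP-2SA differences were 2.76 for FBLN1, 1.52 for NID2, 1.40 for AGRN and -1.90 for FREM1.

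Over the 6 partner lists reported, 66 genes in number, 65 were found and 43 tested. Of these 15 were higher and 16 lower in YAP-2SA than in Control cells, beside 22.9% and 19.5% of loci. With YAP-S127A, 7 were higher and 1 lower, beside 4.56% and 1.75%. With YAP-S127A,S94A, 0 were called by limma, beside 0.0864% of loci higher and 0.0930% lower. By unadjusted p under 0.05, 1 was higher and 2 were lower there. With Control replicate 3 left out, 14 were higher and 16 lower with YAP-2SA, and 6 were higher and 0 lower with YAP-S127A. The 1 gene lower with YAP-S127A was FREM1, named after its values were seen, at 1.90, 1.99 and 1.45 FPKM, and its limma adjusted p was 0.0518 with Control replicate 3 left out. Some partner genes were below 1 FPKM in every library of a group, among them NID2, FREM1, SGCA, KRT5 and KRT14. Such genes entered the test through the groups in which they were high, so the partner counts are a description.

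**Figure D4:**
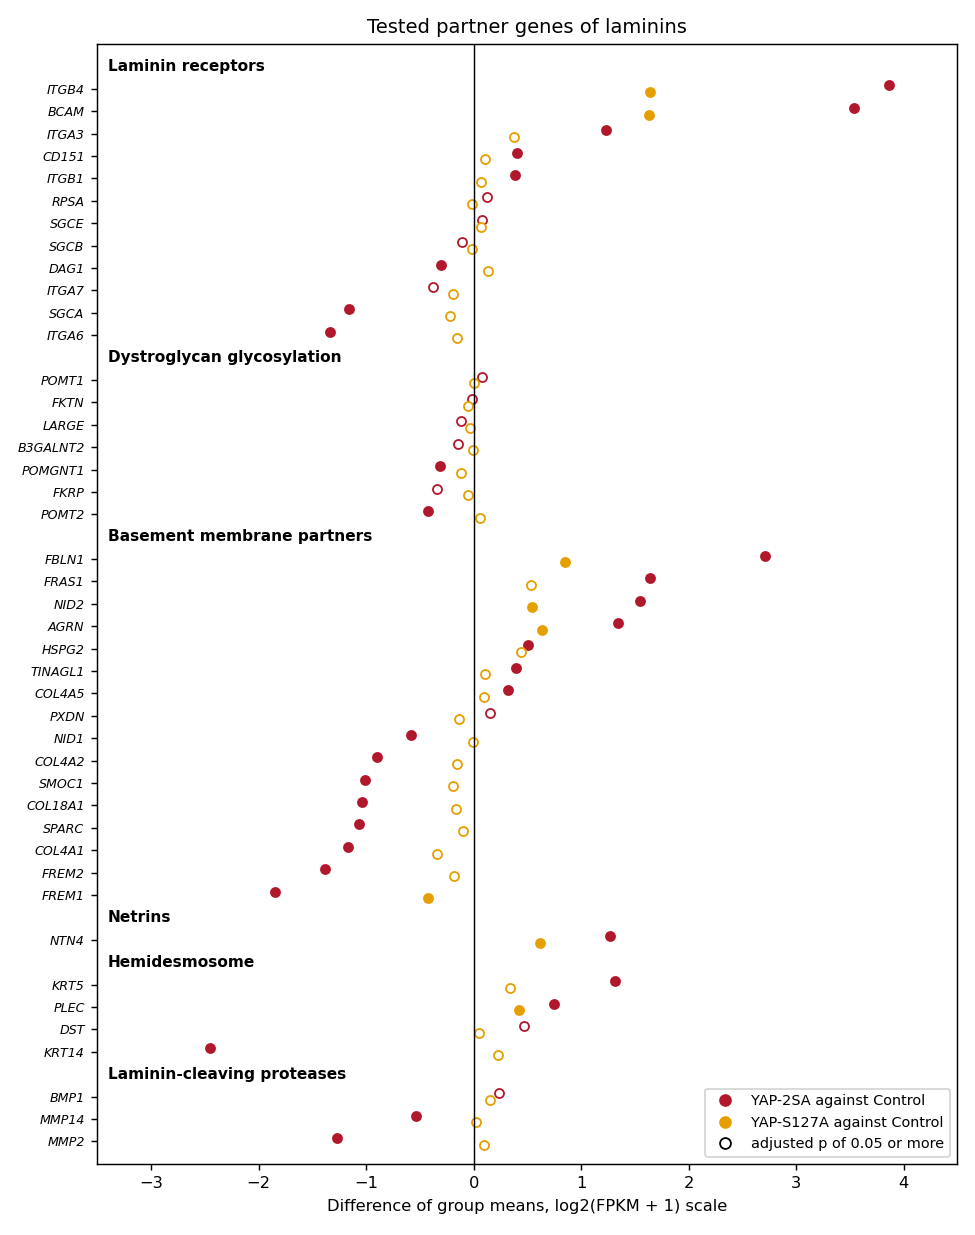
Difference from Control on the log2(FPKM + 1) scale for the 43 tested partner genes, grouped by list, with YAP-2SA and YAP-S127A as separate points (open points, adjusted p of 0.05 or more). ITGB4 and BCAM lie furthest to the right in both comparisons, and KRT14, at a difference of -2.45 with YAP-2SA, lies furthest to the left.

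The sums of some marker lists of cell types also differed, and these sums were carried by few genes. The melanocyte lineage list summed to 366 to 454 FPKM in Control libraries, 444 to 465 FPKM with YAP-S127A,S94A, 269.7 to 348 FPKM with YAP-S127A and 43.2 to 52.4 FPKM with YAP-2SA. SOX10 was at 263 FPKM in Control, 224 with YAP-S127A and 6.16 with YAP-2SA, and S100A1 at 101, 46.3 and 2.91 FPKM. MITF, in contrast, was at 8.59 FPKM in Control and 35.0 FPKM with YAP-2SA. The YAP-S127A and YAP-2SA libraries both lay below every Control library in this sum. The fibroblast list summed to 3.81 to 6.05 FPKM in Control, 13.4 to 14.9 FPKM with YAP-S127A and 42.8 to 50.3 FPKM with YAP-2SA, where COL1A1 was at 33.4 FPKM and COL1A2 at 0.366 FPKM, and 3 of its 6 genes were at a mean of at least 1 FPKM. In the fibroblast list PDGFRB was at 2.61 FPKM in Control and 10.4 FPKM with YAP-2SA, whereas DCN was at 0.461 and 0.178 FPKM. The keratinocyte or epithelial list summed to 6.44 to 7.95 FPKM in Control and 2.24 to 2.33 FPKM with YAP-2SA. In this list KRT14 was at 6.87 and 0.434 FPKM, whereas KRT5 was at 0.0282 and 1.56 FPKM. The endothelial list stayed between 0.817 and 1.52 FPKM, with 0 of its 5 genes at a mean of 1 FPKM in any group, and the immune list at or below 0.708 FPKM. The part of these marker changes in the laminin values was not tested.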

How the data were processed

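RNA from 12 A375 cultures was sequenced, and the authors aligned reads to hg19 with Bowtie2 2.0.0 and TopHat2 2.0.4 and assembled transcripts with Cufflinks 2.0.2 (versions from the submitters' processing notes). They deposited 1 table of log2(FPKM + 1) values per locus and library, so values are normalized per length and library and are not counts. The share of loci that share the most frequent ratio of FPKM steps between libraries was 7.41 to 33.3%, so reads could not be recovered and depth is unknown.

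Of 31588 entries, 3 identical ones were removed. The 15055 loci at 1 FPKM or higher in 3 or more libraries were fitted with limma 3.58.1 in R 4.3.3 (trend in the empirical Bayes step, group means, all 12 libraries, no covariate), with Benjamini-Hochberg adjustment over all loci in each of 6 comparisons. Calls used an adjusted p under 0.05 and, where stated, a fold of back-transformed mean FPKM over 2. Intervals cover 95%. The steps were tested on simulated data. Shares were compared with SciPy 1.17.1 by two-sided exact permutation tests. P-values measure the spread between separately plated cultures of 1 transduced population per group.

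All 9 laminin genes were described. Of the partner lists, genes past both thresholds were named, at most 4 per list and comparison by smallest p, and otherwise only as stated in the text. The laminin genes and the lists were chosen with earlier results of these data known. Gene positions came from GENCODE on GRCh37, and promoter sequences from RefSeq on GRCh38.p14. Protein sequences were not used here, and 1 further partner list is not reported here. Alternatives were another pseudocount (0.1), no filter, a filter at 5 FPKM, a replicate block, quantile normalization, median-ratio scaling and a fold on the log2 scale. Further ones were limma without the trend, FPKM summed over all loci of a gene, a fit on the 6 libraries compared, and leaving out each library.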

Additional observations from a re-analysis of the deposited data

How the results depend on the processing

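The 42 laminin differences were recomputed under 20 or 21 alternatives each, which gave 870 values. Of these values, 847 kept their direction and side of the threshold, 1 lost its call and 2 gained one. The other 20 changed sign, each without a call and near 0. Every called difference of LAMA1, LAMA4 and LAMA5 kept its call in each of these alternatives in which the gene was tested. LAMB3 between YAP-2SA and YAP-S127A had adjusted p = 0.0517 with a fit on these 6 libraries. With a filter of 5 FPKM, LAMA1 was no longer tested and the count of laminin genes higher became 1 in the 4 comparisons where it had been 2, by either rule. LAMB3 was not tested at that filter either, and the count of genes lower at adjusted p went from 3 to 2 in the 3 comparisons of YAP-2SA. The fold of LAMA5 on the log2(FPKM + 1) scale left 1 gene higher past both thresholds for YAP-S127A against YAP-S127A,S94A. Leaving out each library moved that count between 1 and 2, and the count of genes lower at adjusted p between 0 and 1, because LAMA4 reached adjusted p = 0.0436 without YAP-2SA replicate 2. All other laminin counts stayed at their value when a library was left out. The share of alpha-chain FPKM in YAP-2SA minus Control ranged from 5.41 to 7.73 percentage points for LAMA1, from -77.2 to -75.2 for LAMA4 and from 67.7 to 70.4 for LAMA5.

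Sign changes under other settings were, for LAMB1 in YAP-2SA, -0.0569 against YAP-S127A and -0.0666 against YAP-S127A,S94A with quantile normalization, and, for LAMB3 in YAP-S127A against YAP-S127A,S94A, -0.00122 with a pseudocount of 0.1, -0.00735 with median-ratio scaling and -0.00119 with quantile normalization. Where leaving out a library changed the sign, the differences lay, for YAP-S127A against Control, between -0.198 and 0.0162 for LAMB3 and between -0.0443 and 0.0557 for LAMC1. For YAP-S127A,S94A against Control, LAMB2 lay between -0.0577 and 0.122. For YAP-2SA against YAP-S127A, LAMB1 lay between -0.041 and 0.13 and LAMB2 between -0.166 and 0.0277. For YAP-S127A against YAP-S127A,S94A, LAMB1 lay between -0.0773 and 0.0572, LAMB3 between -0.109 and 0.105 and LAMC1 between -0.085 and 0.015. For YAP-2SA against YAP-S127A,S94A, LAMB1 lay between -0.0543 and 0.116. The cause was not tested. Both scalings moved the median difference of all loci by less than 0.1.

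Over all tested loci, same-numbered libraries had correlations of deviations from -0.149 to 0.163, 2 of 18 over 0.1, and 8 of 18 correlated best with their own number. Such correlations do not settle whether single genes follow the replicate number. LAMA1 fell from replicate 1 to 3 with YAP-S127A and YAP-2SA. LAMA4 and LAMB2 rose at each step from replicate 1 to 3 in Control, YAP-S127A and YAP-S127A,S94A. With YAP-2SA both were highest in replicate 2. With the replicate number as a block, LAMA4 in YAP-S127A against YAP-S127A,S94A reached adjusted p = 0.0333, so that 1 gene was lower, and no other laminin call changed. Partner counts in YAP-2SA against Control ranged from 11 to 22 higher and from 12 to 18 lower, and those in YAP-S127A against Control from 3 to 9 higher and from 0 to 2 lower. NID2 in YAP-S127A against Control had adjusted p = 0.0513 with a fit on the 6 libraries. The partner and share alternatives were chosen after seeing the data.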

Other observations

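Several genes that act on laminins outside the cell also differed in YAP-2SA cells. Of 7 listed laminin-cleaving proteases, 3 were tested, and MMP2, a secreted metalloproteinase, was at 89.1, 92.9 and 92.4 FPKM in Control libraries and at 39.0, 38.7 and 34.6 FPKM with YAP-2SA, without overlap (difference -1.27 on the log2(FPKM + 1) scale, limma adjusted p = 1.56e-07). MMP14, which activates MMP2 at the cell surface and was named after its values were seen, was lower by less than 2-fold (-0.54). With Control replicate 3 left out, the YAP-2SA differences were -1.26 for MMP2, -0.49 for MMP14, 1.38 for NTN4, 1.35 for KRT5 and -2.52 for KRT14. With YAP-S127A, MMP2 stood at 89.7, 98.2 and 107 FPKM. By limma 0 of the 3 tested proteases were called, beside 4.56% of loci higher and 1.75% lower, and 0 had an unadjusted p under 0.05. NTN4, a netrin that binds laminin gamma chains, rose from 3.75 FPKM in Control to 10.4 FPKM with YAP-2SA (difference 1.27) and was the 1 netrin tested of 6 listed.

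Of the hemidesmosome list, 4 of 5 genes were tested, of which 2 were higher and 1 lower in YAP-2SA than in Control cells by limma. Of all tested loci, 22.9% and 19.5% were called higher and lower. Beside KRT5, the gene called higher was PLEC, named after its values were seen, at 78.3 FPKM in Control and 132 FPKM with YAP-2SA. The keratin genes KRT5 and KRT14 moved in opposite directions in YAP-2SA cells. KRT14 was at 7.62, 6.82 and 6.16 FPKM in Control libraries and at 0.389, 0.362 and 0.551 FPKM with YAP-2SA, whereas KRT5 was listed at 0, 0.00696 and 0.0777 FPKM and at 1.65, 1.67 and 1.37 FPKM. Both keratin genes thus entered the test through the groups in which they were high. Of the genes whose enzymes put the laminin-binding sugar on dystroglycan, 9 of 10 listed were found and 7 were tested. In YAP-2SA against Control, 0 were higher and 2 were lower at a limma adjusted p under 0.05, both by less than 2-fold. Beside these counts, 22.9% of all tested loci were called higher and 19.5% lower. By unadjusted p under 0.05 the counts of these genes were the same.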
